A study of Sus scrofa with 67 samples.

Results

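Gene expression in the ovary was compared with that in the oviduct on day 9 of the pig oestrous cycle. The comparison used every ovary library and every oviduct library that the sample labels place on day 9, 3 of each, or 6 of the 66 libraries in the count table. The study sequenced poly-A RNA from the ovary, the oviduct and the endometrium on 7 days of the cycle, with day 0 as the first day of oestrous behaviour. The animals were crossbred Landrace × Yorkshire gilts, which are young sows that have not farrowed, 6 to 8 months old and with normal cycles before sampling. No group carried a transgene or received a treatment. The ovary libraries came from a whole ovary of 1 side, so follicles, luteal tissue, stroma, vessels and the surface layer were sampled together. The oviduct libraries came from the ampulla, the wide segment next to the ovary, and its epithelium was not separated from stroma and muscle. Libraries are called by tissue and by their number in the table.

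By day 9 of a cycle, ovulated follicles have become corpora lutea, the temporary glands that take up and synthesise cholesterol and convert it to progesterone. The first step of that conversion takes place in mitochondria, where CYP11A1 cleaves the side chain of cholesterol. The ampulla is where eggs and sperm meet; it is lined by secretory cells, which release glycoproteins into the tubal fluid, and by multiciliated cells, whose beat is driven by dynein arms on a microtubule scaffold. Both tissues respond to ovarian steroids through nuclear receptors. The comparison asks which of these programmes separate the 2 tissues at the middle of the luteal phase.

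The total counts on genes were between 11367278 and 12956387 in the ovary libraries and between 9252196 and 9936361 in the oviduct libraries, and each library had counts on 16900 to 17552 genes. Levels are given as CPM, the counts scaled to library size with TMM factors of the 6 libraries, and 3 counts in a library correspond to between 0.262 and 0.334 CPM. Libraries of the same tissue correlated with r between 0.974 and 0.99 on the log2(CPM + 1) scale across genes and libraries of different tissues with r between 0.679 and 0.727. Of the 25322 genes in the table, 14624 had enough counts for a test. DEGs were genes with an adjusted p under 0.05 over all genes tested, by the quasi-likelihood test of edgeR. By this rule 9303 genes were DEGs, which is 63.6% of those tested, so a called gene is the common case in this comparison. Of them 4514 (30.9% of those tested) were higher in the ovary and 4789 (32.7%) were higher in the oviduct. In 10203 genes (69.8%) every library of one tissue lay beyond every library of the other. The median log2 fold change of all tested genes, ovary minus oviduct, was -0.02.

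Folds were larger on the oviduct side. The median fold of the DEGs was 2.6 for those higher in the ovary and 2.98 for those higher in the oviduct, while the 90th percentiles were 11.9 and 56.1. With a difference of 3 log2 units or more, 690 DEGs were higher in the ovary and 1330 were higher in the oviduct. All samples were bulk tissue, so fewer cells of a type and less RNA per cell cannot be told apart in any of the differences that follow.

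**Figure D1:**
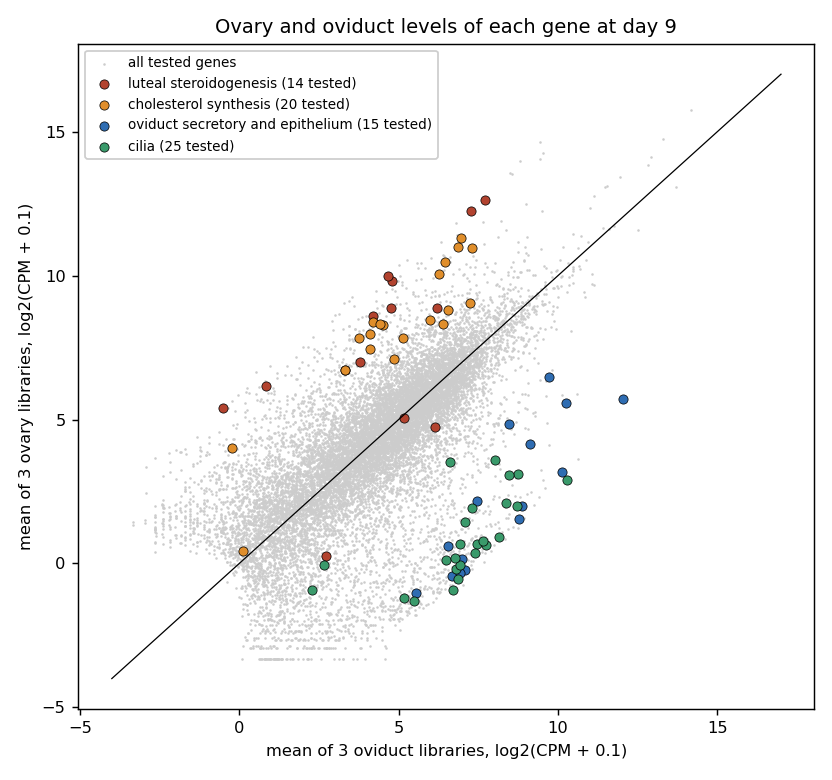
Mean level of each of the 14624 tested genes in the 3 oviduct libraries (x axis) and the 3 ovary libraries (y axis), both as log2(CPM + 0.1), with the line of equal levels. The coloured members of the luteal steroidogenesis and cholesterol synthesis lists lie mostly above the line, and the 15 epithelial and 25 ciliary genes all lie below it.

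Most genes of luteal steroidogenesis were higher in the ovary, several of them by over an order of magnitude. Of the 14 genes of this list found in the table by symbol, all were tested, 11 were higher in the ovary, 2 were higher in the oviduct and 1 was not called, with a median log2 fold change of 4.28 against -0.02 for all tested genes. The shares of all tested genes higher in the ovary and in the oviduct were 30.9% and 32.7%. CYP11A1 (ENSSSCG00000025273), the side-chain cleavage enzyme that makes pregnenolone, stood at 4572, 4621 and 5332 CPM in ovary libraries 1 to 3. In oviduct libraries 1 to 3 it stood at 193, 113 and 154 CPM. The lowest ovary library was far above the highest oviduct library, and the ovary level was 31.5 times the oviduct level (log2 fold change 4.98, SE 0.26, adjusted p = 9.15e-07). SCARB1 (ENSSSCG00000009759), the receptor that takes cholesteryl esters from high-density lipoprotein, was at 5775, 6037 and 7164 CPM in the ovary and at 257, 145 and 221 CPM in the oviduct. Its groups did not overlap, and its ovary level was 30.4 times the oviduct level (adjusted p = 1.41e-06).

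Regulators and carriers of the pathway followed the same direction. NR5A1 (ENSSSCG00000005588), or steroidogenic factor 1, a nuclear receptor that activates steroidogenic genes, was at 35.6, 40.5 and 50.4 CPM in the ovary and at 0.809, 0.465 and 0.525 CPM in the oviduct. Its relative NR5A2 (ENSSSCG00000024975) was at 928, 909 and 865 CPM in the ovary and at 40.9, 16.8 and 24.3 CPM in the oviduct. Both genes were separated without overlap (68.9-fold, adjusted p = 4.90e-07, and 32.9-fold, adjusted p = 3.09e-06). NPC1 and NPC2, which export cholesterol from lysosomes, were higher in the ovary by 21.3 and 6.43 times. FDXR, the reductase that feeds electrons to mitochondrial P450 enzymes, was higher by 17.7 times and SOAT1, which esterifies cholesterol for storage, by 9.44 times. HSD17B7, an enzyme of both oestradiol and cholesterol synthesis, was higher by 10.7 times. These 5 genes had adjusted p between 8.15e-07 and 3.03e-06.

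CYP17A1, the enzyme on the path from pregnenolone to androgens, was called higher in the ovary but varied more between libraries. It stood at 40.8, 55.7 and 117 CPM in the ovary and at 1.62, 0.651 and 2.8 CPM in the oviduct (log2 fold change 5.37, SE 0.55, adjusted p = 4.49e-05). The exceptions to the direction were TSPO, HSD17B11 and STARD3. TSPO, a cholesterol-binding protein of the outer mitochondrial membrane, was at 32.8, 23.9 and 22.9 CPM in the ovary and at 55.8, 70.3 and 87.5 CPM in the oviduct, 2.68 times higher in the oviduct (adjusted p = 0.000438). HSD17B11, a dehydrogenase found on lipid droplets, was at 1.39, 1.66 and 0.223 CPM in the ovary and at 10.9, 6.04 and 2.63 CPM in the oviduct (log2 fold change -2.52, SE 0.65, adjusted p = 0.00841). STARD3, a sterol carrier of late endosomes, was not called (log2 fold change -0.12, SE 0.16, adjusted p = 0.538). Of the 23 symbols in this list, 14 matched an identifier in the table. STAR and HSD3B1 were among those without a match and were not analysed here.

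Genes of cholesterol synthesis were higher in the ovary with 1 exception. All 20 members of the list found in the table were tested, 19 were higher in the ovary, 0 were higher in the oviduct and the median log2 fold change was 3.73. Across all tested genes 30.9% were higher in the ovary and 32.7% in the oviduct. The examples in this paragraph were chosen after their values were seen. HMGCS1 (ENSSSCG00000016872), which makes the precursor of mevalonate, was at 2168, 2621 and 2881 CPM in the ovary and at 135, 104 and 132 CPM in the oviduct (log2 fold change 4.37, SE 0.21, adjusted p = 5.94e-07). Later enzymes went the same way, with FDPS higher in the ovary by 14.0 times and SQLE by 18.5 times. SREBF2, the transcription factor that switches on the pathway when sterol is low, was higher in the ovary by 3.87 times (adjusted p = 9.09e-05). INSIG1, which holds that factor back in the endoplasmic reticulum, was higher by 15.2 times (adjusted p = 3.51e-07). The summed level of the 20 members was between 11300 and 13800 CPM in the ovary libraries and between 1050 and 1220 CPM in the oviduct libraries.

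Most ovary-high transcripts were still counted in the oviduct, and their level there differed between the oviduct libraries. Over the 690 DEGs at least 3 log2 units higher in the ovary, the median oviduct level was 6.62% of the ovary level, and 7 genes were under 1%. In the other direction, over 1330 DEGs, the median ovary level was 2.86% of the oviduct level, and 313 genes were under 1%. Oviduct library 1 was the highest of the 3 oviduct libraries in 386 of the 690 genes (55.9%), against 28.8% of all tested genes, and oviduct library 2 was the highest in 14.2%, against 33.9%. CYP11A1, SCARB1 and NR5A2 had their highest oviduct level in library 1 and their lowest in library 2. Other ovary-high genes did not, as NPC1 and CYP17A1 were highest in oviduct library 3. LHCGR and OXTR, described below, were also highest in that library. On the scale of all 66 libraries, the mean of CYP11A1 on any day was at most 5.13 CPM in the endometrium and reached 162 CPM in the oviduct on day 9. The summed level of the 14 luteal genes was between 534 and 786 CPM in the oviduct libraries and between 13800 and 16600 CPM in the ovary libraries. None of the 14 was at 0 in the oviduct, and the part of ovarian tissue or of its RNA in these oviduct levels was not tested.

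Genes of follicles and gonadal hormones were mostly higher in the ovary. Of the 19 members found in the table, 14 passed the filter on low counts, and a member could pass through the higher tissue alone. Of those 14, 12 were higher in the ovary and 2 in the oviduct, against 30.9% and 32.7% of all tested genes. INHA, the alpha subunit of inhibin from granulosa and luteal cells, was at 284, 423 and 211 CPM in the ovary and at 17.6, 7.9 and 7.09 CPM in the oviduct (log2 fold change 4.81, SE 0.42, adjusted p = 1.63e-05). LHCGR, the receptor of luteinising hormone, was at 31.4, 28.8 and 55.6 CPM in the ovary and at 0.449, 0.744 and 1.93 CPM in the oviduct (log2 fold change 5.19, SE 0.48, adjusted p = 2.27e-05). FST, or follistatin, which binds activin, was higher in the ovary by 22.6 times, and GATA4, a transcription factor of gonadal somatic cells, by 43.5 times. OXTR, the oxytocin receptor, was at 26.5, 25.6 and 22.6 CPM in the ovary and at 0.36, 0.372 and 3.24 CPM in the oviduct. Its groups did not overlap, and oviduct library 3 was above the other 2 oviduct libraries.

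Hormone genes of theca and growing follicles were unevenly counted among the 3 ovaries. INSL3, an insulin-like hormone of theca cells, was at 3.9, 17.03 and 9.03 CPM in the ovary libraries and had 1 count in all oviduct libraries together. The ratio of INSL3 in the ovary to that in the oviduct was 340, with a 95% exact interval from 60.5 to 13500 for counting error only. FSHR, the receptor of follicle-stimulating hormone on granulosa cells, was at 0.279, 19.0 and 1.56 CPM in the ovary libraries, so that ovary library 2 held 218 of its 235 counts and ovary library 1 held 3. FSHR had no count in the oviduct libraries and did not pass the filter. No fold is given, since it would be that of ovary library 2. The 2 members higher in the oviduct were WT1 and PRLR. WT1, a transcription factor of mesothelium, surface epithelium and early granulosa cells, was at 27.0, 28.3 and 30.1 CPM in the ovary and at 276, 312 and 248 CPM in the oviduct, with no overlap (9.79-fold higher in the oviduct, adjusted p = 4.75e-07). PRLR, the prolactin receptor, was at 0.186, 0.087 and 0.112 CPM in the ovary and at 6.29, 4.83 and 1.84 CPM in the oviduct (adjusted p = 0.000215), and every ovary library was below the level of 3 counts.

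Oocyte genes went in both directions, most of them at a few counts. Of the 16 members found in the table, every ovary library was above every oviduct library in 6, the reverse held in 5, and in 5 the tissues overlapped or had no counts. Among all tested genes the tissues did not overlap in 69.8%, a similar share, so this count says nothing particular about oocyte genes. Only 6 members passed the filter on low counts, of which 1 was called higher in the ovary and 5 higher in the oviduct, and a member could pass through the tissue where it was high. For all tested genes the shares were 30.9% and 32.7%. The genes of this paragraph were chosen after their values were seen. PADI6, a cytoplasmic protein of oocytes, was at 1.86, 3.49 and 1.9 CPM in the ovary with 77 counts in all, and it had no count in the oviduct, which puts the ovary at least 8.934-fold higher against the floor of 3 counts per library. GDF9, an oocyte growth factor, was at 19.6, 20.5 and 15.1 CPM in the ovary and at 50.5, 53.5 and 46.7 CPM in the oviduct (log2 fold change -1.45, SE 0.17, adjusted p = 9.75e-05). SYCP3, a protein of the meiotic chromosome axis, was at 6.51, 6.2 and 4.46 CPM in the ovary and at 35.1, 46.1 and 18.0 CPM in the oviduct (log2 fold change -2.52, SE 0.35, adjusted p = 0.000269). Both genes were higher in every oviduct library than in any ovary library. KPNA7 and MOS were also called higher in the oviduct, where KPNA7 was at 4.58, 4.18 and 3.33 CPM and MOS at 3.06, 2.51 and 2.01 CPM. ZP2 was called higher in the oviduct with 1 oviduct library at 14.3 CPM. The call of ZP2 was lost without oviduct library 2 (log2 fold change -1.42, adjusted p = 0.122) and without ovary library 1 or 3, and that of MOS without ovary library 1 (adjusted p = 0.066) or 2 (adjusted p = 0.0563). The fit of all libraries called neither MOS (adjusted p = 0.0878) nor KPNA7 (adjusted p = 0.215). Members with ovary counts too low for a test included the oocyte coat proteins ZP3, with 77 counts in the ovary and 0 in the oviduct, and ZP4, with 51 counts against 2. The ratio of ZP4 was 27.2, with a counting interval from 7.16 to 231. BMP15, an oocyte growth factor, had 29 counts against 3, a ratio of 10.3 with a counting interval from 3.2 to 53. ZAR1 had 12 counts in the ovary and 0 in the oviduct, and DPPA5 was at 0.836, 0.961 and 0.892 CPM in the ovary and at 0, 0.186 and 0.613 CPM in the oviduct. The tool's strand setting is not given in the sources used here, and overlapping genes could not be told apart.

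Oviduct secretory and epithelial genes were higher in the oviduct without exception in the list. All 15 members found in the table were tested and all 15 were higher in the oviduct, with a median log2 fold change of -6.78 and no overlap between the groups in any of them. Among all tested genes 32.7% were higher in the oviduct, and the groups did not overlap in 69.8%. OVGP1 (ENSSSCG00000006791), the oviductal glycoprotein that coats the zona pellucida, was at 69.9, 42.0 and 45.0 CPM in the ovary and at 950, 6477 and 5089 CPM in the oviduct (log2 fold change -6.32, SE 0.72, adjusted p = 8.09e-05). Oviduct library 1 had a several-fold lower OVGP1 level than the other 2 oviduct libraries, and it was still above every ovary library. SPP1, or osteopontin, a secreted phosphoprotein, was at 87.3, 29.3 and 27.4 CPM in the ovary and at 1367, 1369.6 and 905 CPM in the oviduct (log2 fold change -4.66, SE 0.49, adjusted p = 5.14e-05). LTF, or lactoferrin, an iron-binding antimicrobial protein, was at 3.07, 4.63 and 4.01 CPM in the ovary and at 488, 629 and 294 CPM in the oviduct (log2 fold change -6.91, SE 0.35, adjusted p = 8.40e-07). C3, the central complement component, was at 119, 39.9 and 106 CPM in the ovary and at 732, 251 and 1531 CPM in the oviduct (log2 fold change -3.25, SE 0.65, adjusted p = 0.00222).

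Structural and regulatory genes of the epithelium differed between the tissues in the same direction. KRT8 (ENSSSCG00000000252), a keratin of simple epithelia, was at 7.44, 11.4 and 7.92 CPM in the ovary and at 999.8, 969 and 1419 CPM in the oviduct (log2 fold change -6.98, SE 0.28, adjusted p = 3.29e-07). GRHL2, a transcription factor that keeps epithelial identity, was at 1.02, 0.699 and 0.557 CPM in the ovary and at 139, 136 and 130.2 CPM in the oviduct (log2 fold change -7.44, SE 0.21, adjusted p = 2.36e-07). CLDN4 and CDH1, proteins of tight and adherens junctions, were higher in the oviduct by 156 and 122 times, and EPCAM, an epithelial adhesion protein, by 31.7 times. PAX2, a transcription factor of Müllerian and mesonephric epithelia, was at 0.093, 0.961 and 0.112 CPM in the ovary and at 51.4, 41.1 and 47.6 CPM in the oviduct. ESRP1, ELF3 and EHF, which set splicing and transcription in epithelia, were higher in the oviduct by 65.2, 169 and 39.6 times. The summed level of the list was between 181 and 356 CPM in the ovary libraries and between 6450 and 11800 CPM in the oviduct libraries, and no member was at 0 in the ovary.

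Cilia genes were the other uniform group of the oviduct. All 25 members found in the table were tested and higher in the oviduct, with a median log2 fold change of -6.67 and no overlap between the groups. The shares over all tested genes were 32.7% higher in the oviduct and 69.8% without overlap in either direction. FOXJ1 (ENSSSCG00000017187), the master transcription factor of motile cilia, was at 5.95, 9.61 and 6.47 CPM in the ovary and at 1174, 1294 and 1269 CPM in the oviduct (169-fold, log2 fold change -7.40, SE 0.25, adjusted p = 2.39e-07). RSPH4A, a radial spoke head protein, was at 0.279, 0.786 and 0.223 CPM in the ovary and at 105, 107 and 103 CPM in the oviduct (229-fold). DNAH9, a heavy chain of the outer dynein arm, was at 8.27, 8.73 and 7.92 CPM in the ovary and at 333, 377 and 349.9 CPM in the oviduct (42.4-fold). The 3 oviduct libraries were close to one another for these 3 genes. The regulators that commit cells to multiple cilia were also higher in the oviduct, GMNC by 134 times, TP73 by 99.5 times and MYB by 41.8 times. CCNO was counted at 6.29, 3.72 and 4.2 CPM in the oviduct and RFX3 at 8.45, 5.95 and 4.2 CPM, and they were higher there by 10.4 and 6.95 times, with the call of CCNO lost when all 66 libraries were fitted together (adjusted p = 0.0549). Dynein intermediate chain DNAI2, assembly factor ZMYND10 and central-pair proteins SPAG6 and SPAG17 were higher by 157, 108, 138 and 138 times. The summed level of the 25 genes was between 63 and 96.8 CPM in the ovary libraries and between 5070 and 5600 CPM in the oviduct libraries.

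**Figure D2:**
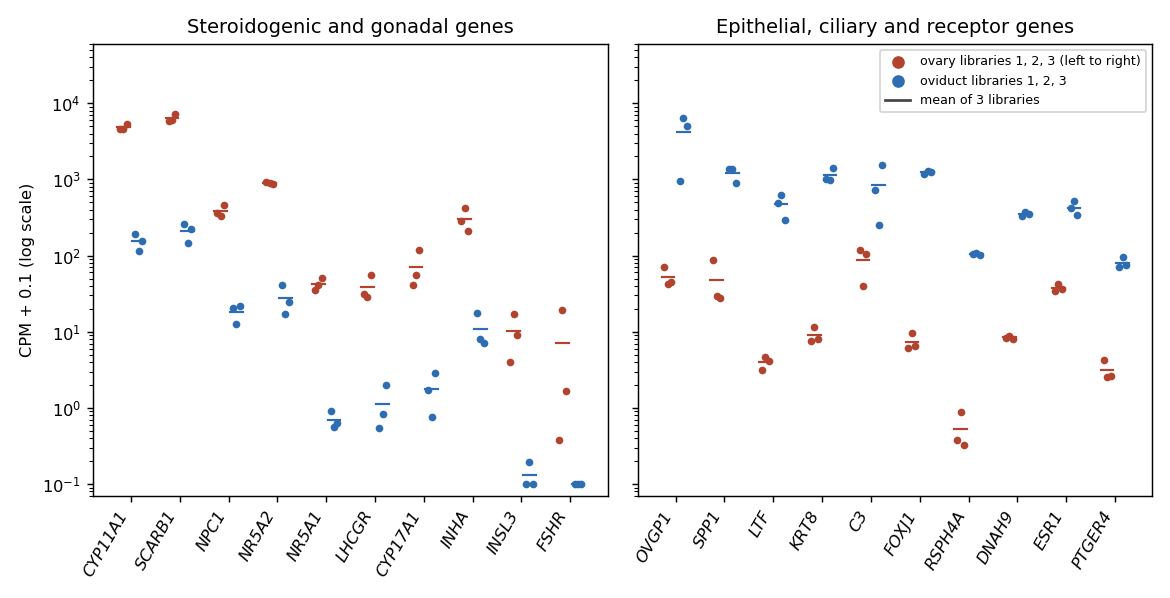
CPM + 0.1 on a log axis for 20 genes in ovary libraries 1 to 3 (red) and oviduct libraries 1 to 3 (blue), with a bar at the mean of each tissue. The tissues do not overlap for any of the 20 genes, FSHR and INSL3 lie at or near the bottom of the axis in the oviduct, and OVGP1 is lowest in oviduct library 1.

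Matrix and vessel genes were mostly higher in the ovary. In the stroma and matrix list, 12 of the 15 tested genes were higher in the ovary, 2 were higher in the oviduct and 1 was not called, with a median log2 fold change of 2.2. Across all tested genes 30.9% were higher in the ovary and 32.7% in the oviduct. The genes named in the next sentences were chosen after their values were seen, apart from TIMP1 and COL3A1. TIMP1 (ENSSSCG00000012277), an inhibitor of matrix metalloproteinases, was at 18199, 21257 and 19869 CPM in the ovary and at 987, 512 and 735 CPM in the oviduct (log2 fold change 4.73, SE 0.30, adjusted p = 2.79e-06). COL3A1 (ENSSSCG00000016034), a fibrillar collagen, was at 17459, 12339 and 21730 CPM in the ovary and at 833, 548 and 701 CPM in the oviduct (log2 fold change 4.63, SE 0.31, adjusted p = 3.45e-06). PDGFRA, a growth factor receptor of fibroblasts and theca, was higher in the ovary by 27.5 times. The 2 matrix genes higher in the oviduct were FBLN1 and LUM, by 2.95 and 3.98 times, and DCN was not called (adjusted p = 0.0531), although DESeq2 called it higher in the ovary (adjusted p = 0.0342). Among endothelial and angiogenic genes, 13 of the 14 tested were higher in the ovary (30.9% of all tested genes were), with a median log2 fold change of 2.28. PECAM1, an adhesion molecule of endothelium, was at 338, 255 and 309.6 CPM in the ovary and at 57.0, 63.2 and 74.5 CPM in the oviduct. VEGFA was higher in the ovary by 4.94 times and its receptors KDR, FLT1 and FLT4 by 3.8, 8.2 and 13.6 times. ANGPT2, which loosens vessels, was the member called higher in the oviduct (log2 fold change -0.65, SE 0.23, adjusted p = 0.038), and that call was lost in 5 of 6 fits that left out a library, with adjusted p between 0.0539 and 0.109. Calls in the ovary direction were lost too. That of ANGPT1 was lost in the fit of all libraries (adjusted p = 0.0672) and without ovary library 1 or 2 or oviduct library 3. In the matrix list, the call of COL6A1 was lost in the fit of all libraries (adjusted p = 0.119). It was also lost without ovary library 1 or 3 or any 1 of the oviduct libraries, with adjusted p up to 0.0742. The summed level was between 38100 and 48900 CPM in the ovary and between 3170 and 3570 CPM in the oviduct for the matrix list. For the endothelial list it was between 1520 and 2370 CPM in the ovary and between 324 and 482 CPM in the oviduct.

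Contractile genes were higher in the oviduct, whose wall holds smooth muscle. Of 11 tested, 8 were higher in the oviduct, 1 was higher in the ovary and 2 were not called, with a median log2 fold change of -1.79. The shares over all tested genes were 32.7% higher in the oviduct and 30.9% higher in the ovary. DES, or desmin, was at 59.6, 56.3 and 59.8 CPM in the ovary and at 1904, 1622 and 1085 CPM in the oviduct, and MYH11, the smooth muscle myosin, was higher in the oviduct by 12.7 times. CALD1 was the member higher in the ovary, by 2.58 times. In all 11 genes oviduct library 3 was the lowest of the oviduct libraries, although in MYLK it was nearly level with oviduct library 2. The summed level ranged from 4340 to 7640 CPM in the oviduct and from 2350 to 2510 CPM in the ovary. These genes were named after their values were seen.

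Most tested immune markers were not called. Over all tested genes 63.6% were called, 30.9% higher in the ovary and 32.7% higher in the oviduct. Of 12 tested immune markers, 4 were higher in the ovary, 1 was higher in the oviduct and 7 were not called, with a median log2 fold change of 0.294. The 4, a share close to that over all tested genes, were CD14, CD4, CD68 and NKG7, and their levels did not exceed 51.2 CPM. CD14, a monocyte receptor, was at 42.5, 43.8 and 51.2 CPM in the ovary and at 8.27, 5.67 and 8.32 CPM in the oviduct (log2 fold change 2.62, SE 0.20, adjusted p = 8.00e-06). The calls of CD68 and NKG7 were lost without ovary library 1 (adjusted p = 0.0711 and 0.0531), and that of CD68 also without ovary library 3 or oviduct library 1 or 2. The member higher in the oviduct was LYZ, or lysozyme, whose call was lost without ovary library 2 or 3 or oviduct library 1, with adjusted p up to 0.117. PTPRC, the antigen common to leukocytes, was at 23.9, 14.2 and 11.7 CPM in the ovary and at 15.1, 12.0 and 17.3 CPM in the oviduct and was not called. Among red cell genes only HBB passed the filter, and it was higher in the ovary by 1.72 times (not called in the fit of all libraries, adjusted p = 0.529), with the summed list between 19 and 25.5 CPM in the ovary and between 9.89 and 13.6 CPM in the oviduct. Of 9 Müllerian patterning genes in the table, 3 were tested: MSX1 was higher in the ovary, GATA2 was higher in the oviduct and HOXD9 was not called.

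Of the 12 tested genes of steroid and growth factor receptors, 4 were higher in the ovary, 4 were higher in the oviduct and 4 were not called. This is close to the share called among all tested genes (63.6%, with 30.9% and 32.7% in the 2 directions), so the count says nothing particular about receptors, and single genes follow. ESR1 (ENSSSCG00000025777), the oestrogen receptor alpha, was at 34.7, 42.7 and 36.5 CPM in the ovary and at 423, 515 and 339 CPM in the oviduct, 11.2 times higher in the oviduct (log2 fold change -3.49, SE 0.20, adjusted p = 1.44e-06). PGR, the nuclear progesterone receptor, was at 15.8, 16.9 and 7.69 CPM in the ovary and at 16.2, 15.6 and 10.4 CPM in the oviduct, and its groups overlapped (log2 fold change -0.06, SE 0.31, adjusted p = 0.881). ESR1 was separated between the tissues without overlap, whereas no difference in PGR was detectable with 3 libraries a group. PGRMC1, a membrane-associated progesterone-binding protein, was at 1619, 1618 and 1284 CPM in the ovary and at 589, 424 and 443 CPM in the oviduct (log2 fold change 1.63, SE 0.19, adjusted p = 9.66e-05). PGRMC2 was not called (adjusted p = 0.0541), but it was called higher in the ovary with the library number as a block (adjusted p = 0.028) and without oviduct library 2 (adjusted p = 0.027).

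Receptors of leptin and growth factors also went in both directions. LEPR, the leptin receptor, was at 23.1, 15.4 and 78.7 CPM in the ovary and at 0.36, 0.558 and 1.49 CPM in the oviduct, and ovary library 3 was above the other 2 ovary libraries (log2 fold change 5.57, SE 0.78, adjusted p = 0.000284). ERBB3, a receptor of neuregulins, was at 0.744, 0.262 and 0.669 CPM in the ovary and at 29.3, 18.4 and 29.5 CPM in the oviduct (log2 fold change -5.52, SE 0.37, adjusted p = 3.76e-06). EGFR, the epidermal growth factor receptor, was higher in the oviduct by 1.89 times (adjusted p = 0.00888), a call lost in the fit of all libraries (adjusted p = 0.101). GHR, the growth hormone receptor, was called at an adjusted p of 0.0471 with a log2 fold change of 0.50. That call was lost with the library number as a block (adjusted p = 0.051) and in every fit that left out a library, with adjusted p between 0.0513 and 0.134. NR3C1, the glucocorticoid receptor, was called higher in the ovary with a log2 fold change of 0.59, and the call was lost without ovary library 1 (adjusted p = 0.0874) or oviduct library 2 (adjusted p = 0.0767). INSR and GPER1 were not called.

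Of the 13 tested members of the prostaglandin system, 5 were higher in the ovary, 3 were higher in the oviduct and 5 were not called, a share also close to the 63.6% called among all tested genes. PTGES (ENSSSCG00000005688), the inducible prostaglandin E synthase, was at 1022, 1002 and 1693 CPM in the ovary and at 76.3, 22.2 and 47.9 CPM in the oviduct, 25.4 times higher in the ovary (log2 fold change 4.66, SE 0.46, adjusted p = 3.69e-05). The cyclooxygenase PTGS2 was at 3.62, 3.23 and 3.46 CPM in the ovary and at 0.629, 2.04 and 0.701 CPM in the oviduct, higher in the ovary at low levels (log2 fold change 1.61, SE 0.45, adjusted p = 0.0121), and PTGS1 was not called. SLCO2A1, the transporter that takes up prostaglandins, was at 49.8, 48.2 and 63.9 CPM in the ovary and at 5.93, 2.23 and 5.69 CPM in the oviduct (log2 fold change 3.54, SE 0.33, adjusted p = 2.62e-05). PLA2G4A, which frees arachidonic acid, and PTGES2 were higher in the ovary by 1.73 and 1.54 times. The calls of PTGS2, PLA2G4A and PTGES2 were lost in the fit of all libraries (adjusted p = 0.194, 0.0506 and 0.0904). On the receptor side, PTGER4, which binds prostaglandin E2, was at 4.18, 2.45 and 2.56 CPM in the ovary and at 70.4, 95.5 and 74.1 CPM in the oviduct (log2 fold change -4.70, SE 0.25, adjusted p = 1.13e-06). PTGER1 and PTGES3, a co-chaperone with synthase activity, were also higher in the oviduct, by 4.85 and 2.41 times. PTGER2 and PTGER3 were not called, and PTGER3 was called higher in the oviduct without oviduct library 2 (adjusted p = 0.0235). UBB, 1 of the reference genes of the study's PCR assays and the one matched here, was not called (log2 fold change -0.34, SE 0.15, adjusted p = 0.0817), and it was called higher in the oviduct with the library number as a block (adjusted p = 0.035) and with DESeq2 (adjusted p = 0.0172).

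**Figure D3:**
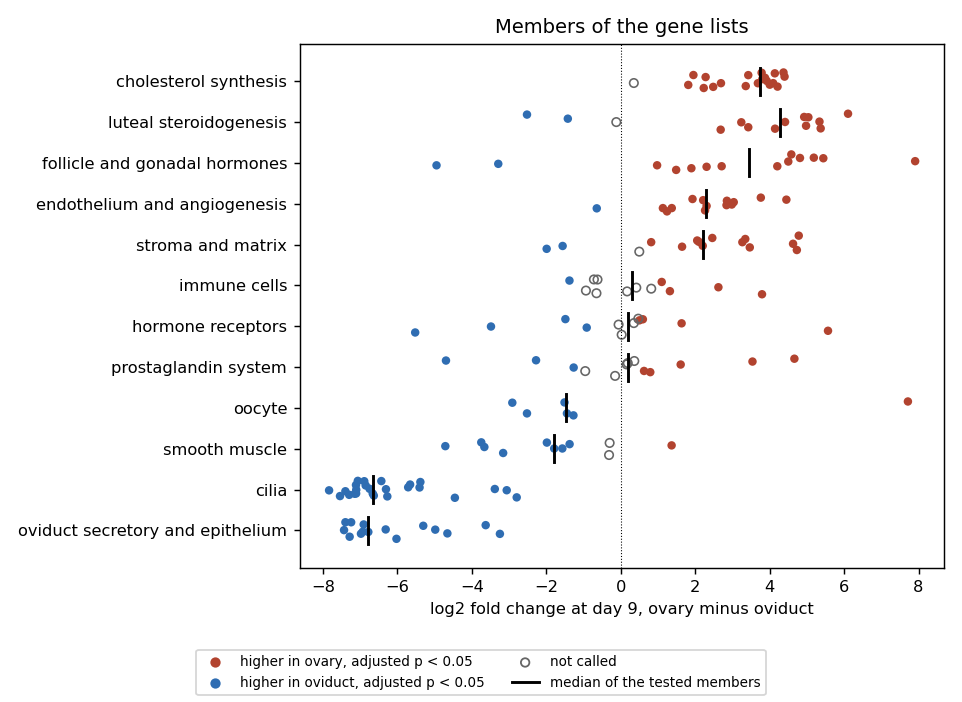
Log2 fold change at day 9, ovary minus oviduct, of each tested member of 12 gene lists, with filled points for DEGs, open circles for genes not called and a bar at the median of each list. The 20 cholesterol synthesis genes lie to the right of 0, the 15 epithelial and 25 ciliary genes lie to the left, and receptors and prostaglandin genes fall on both sides.

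The named genes with the largest folds and a mean of at least 10 CPM included matrix proteins, proteases and transcription factors on the ovary side and ciliary genes on the oviduct side. In the ovary direction 11 of the 12 genes were PRSS35, MKX, SPOCK3, IBSP, NR5A1, CLIC6, TMPRSS7, COL6A5, ADAMDEC1, OLFM2 and DUOXA2. ADAMDEC1, a secreted metalloprotease, was at 639.8, 558 and 655 CPM in the ovary and at 12.8, 7.62 and 14.3 CPM in the oviduct (53.3-fold, adjusted p = 4.94e-07). IBSP, a sialoprotein of mineralised matrix that binds integrins, was at 110.1, 102 and 91.5 CPM in the ovary and at 0.809, 1.12 and 2.1 CPM in the oviduct (74.4-fold, adjusted p = 5.50e-07). These 2 genes had similar levels in the 3 ovary libraries. DUOXA2, the maturation factor of a dual oxidase, was at 72.8, 90.5 and 81.6 CPM in the ovary and at 1.89, 0.93 and 2.1 CPM in the oviduct. Its groups were separated by over an order of magnitude. SPOCK3, a matrix proteoglycan, was uneven, with 7.06, 31.0 and 5.46 CPM in the ovary libraries, the highest in library 2. CLIC6 and TMPRSS7 were highest in ovary library 3, at 96.4 and 94.7 CPM. PRSS35, MKX, SPOCK3 and COL6A5 had at most 3 counts in each oviduct library, so their fitted folds are not given. The other named genes had log2 fold changes from 5.62 to 6.22.

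In the oviduct direction 11 of the 12 genes were LRRC18, FAM83E, CFAP141, C11orf97, CLDN8, CFAP65, RSPH4A, C1orf87, FFAR4, SLC28A3 and ANKEF1. LRRC18 was at 24.8, 23.8 and 22.1 CPM in the oviduct, with 784 counts, and had 0 counts in the ovary, which puts the oviduct at least 80.74-fold higher against the floor of 3 counts per library. FAM83E had 504 counts in the oviduct and 0 in the ovary, at least 51.9-fold higher. CFAP65, which is needed for cilia and flagella, was at 127, 111 and 149.6 CPM in the oviduct and at 0.372, 0.349 and 0.78 CPM in the ovary (261-fold, adjusted p = 2.39e-07). Among those with very few ovary counts, CLDN8, a tight junction protein, had 1090 counts in the oviduct and 3 in the ovary. Its ratio was 340, with a counting interval from 116 to 1650. SLC28A3, a transporter of nucleosides, was at 154, 226 and 241 CPM in the oviduct and at 0.558, 1.48 and 0.78 CPM in the ovary (214-fold, adjusted p = 4.37e-07). FFAR4, a receptor of long-chain fatty acids, was at 39.998, 49.5 and 47.5 CPM in the oviduct and at 0.279, 0.175 and 0.112 CPM in the ovary (adjusted p = 2.52e-07), at most 3 counts in each ovary library, so no fold is given.

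Genes counted in one tissue and near 0 in the other were also more numerous on the oviduct side. With at least 10 counts in each library of one tissue and at most 3 in each library of the other, 356 genes were counted in the oviduct alone and 97 in the ovary alone. Every library has to pass this rule, so leaving 1 out can only keep or raise these numbers. In the 6 such counts the ovary number was between 113 and 151 and the oviduct number between 391 and 480.

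The ovary libraries were more concentrated on a few genes. The 10 genes with the most counts held 17.45%, 17.9% and 20.95% of the counts in ovary libraries 1 to 3 and 8.6%, 8.439% and 10.56% in oviduct libraries 1 to 3. Among genes with a symbol, those with the highest mean CPM in the ovary were COX1, COX3, TIMP1, COX2 and COL3A1, and those in the oviduct were COX1, COX3, COX2, ATP6 and CLU. COX1, the mitochondrially encoded subunit I of cytochrome c oxidase, was at 47853, 51390 and 68121 CPM in the ovary and at 18487, 16178 and 20568 CPM in the oviduct (log2 fold change 1.6, SE 0.25, adjusted p = 0.000486). COX3, COX2 and ATP6, which the mitochondrial genome also encodes, were higher in the ovary by 2.73, 2.32 and 2.02 times, without overlap. CLU, or clusterin, a secreted chaperone, was at 3517, 2560.4 and 3152 CPM in the ovary and at 4688, 4805 and 8014 CPM in the oviduct (log2 fold change -0.92, SE 0.26, adjusted p = 0.0122).

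The difference between the tissues on day 9 was then compared with the difference on day 0, in a fit of the 12 libraries of both days. The difference of the differences was tested in 15443 genes and called in 4003. It was positive, a larger ovary-to-oviduct ratio on day 9, in 2087 genes (13.5% of those tested) and negative in 1916 (12.4%), with a median of -0.044 over all genes. For cholesterol synthesis 18 of 20 tested genes were called with a larger ratio on day 9 and 0 with a smaller one. The median log2 fold change of this list was -0.0498 on day 0 and 3.79 on day 9 on the 12-library scale. HMGCS1 was at 91.0, 242 and 529 CPM in the ovary libraries of day 0 and at 2199.9, 2648 and 2982 CPM in those of day 9. In the oviduct it was at 276, 537 and 353 CPM on day 0 and at 131, 102 and 129.6 CPM on day 9. The 2 tissues overlapped on day 0 and were apart on day 9, and ovary library 1 was the lowest on day 0.

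The luteal steroidogenesis list as a whole was already higher in the ovary on day 0, with a median log2 fold change of 2.84 against 4.34 on day 9. The median of the differences of single genes between the days was only 0.116. The ovaries of day 0 were uneven, with CYP11A1 at 308, 2052 and 2429 CPM in libraries 1 to 3. Of the 14 genes of the list, 2 were called with a larger ratio on day 9, NPC1 and FDXR, and 2 with a smaller ratio, NR5A1 and TSPO. These counts are close to the shares over all tested genes (13.5% and 12.4%), so they say nothing particular about the list. NR5A1 had at most 1 count in each oviduct library of day 0, so its ratio on that day is a fitted value and not a measured size. Its level was 19.0, 29.3 and 29.4 CPM in the ovary on day 0 and 36.1, 40.9 and 52.2 CPM on day 9. TSPO was at 82.8, 107 and 23.0 CPM in the ovary and 28.8, 20.7 and 21.6 CPM in the oviduct on day 0, where the tissues overlapped. On day 9 it was at 33.3, 24.2 and 23.7 CPM in the ovary and 54.2, 68.9 and 86.2 CPM in the oviduct, with every oviduct library above every ovary library. In the stroma and matrix list 7 of 15 tested genes were called with a larger ratio on day 9 and 0 with a smaller one, beside the same shares over all tested genes. COL3A1 was at 9140.2, 7941 and 8277 CPM in the ovary and 5047, 4001 and 5362 CPM in the oviduct on day 0. On day 9 it was at 17712, 12465 and 22492 CPM in the ovary and 809.9, 538 and 690.2 CPM in the oviduct, so every ovary library was higher and every oviduct library lower on day 9. FBLN2, a fibulin of the matrix, was higher in the oviduct on day 0 (mean 484 CPM against 47.0 CPM in the ovary) and higher in the ovary on day 9 (216 against 65.9 CPM).

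Ciliary and epithelial genes were higher in the oviduct on both days. Their median log2 fold changes were -5.89 and -5.44 on day 0 and -6.61 and -6.74 on day 9. A difference further towards the oviduct on day 9 was called in 6 of 25 and 5 of 15 genes, against 12.4% of all tested genes. OVGP1 was at 176825, 47749 and 156326 CPM in the oviduct on day 0 and at 923, 6350.3 and 5013 CPM on day 9. In the ovary it was at 519, 2053 and 729 CPM on day 0 and at 70.9, 42.4 and 46.6 CPM on day 9. Its levels were lower on day 9 without overlap in both tissues, and the ratio between the tissues was not called different (adjusted p = 0.696). ESR1 in the oviduct was at 1027, 803 and 1003 CPM on day 0 and at 411, 505 and 334 CPM on day 9, while the ovary was at 32.1, 33.4 and 55.1 CPM on day 0 and at 35.2, 43.1 and 37.7 CPM on day 9. Of 12 tested oocyte genes, 4 were called with a smaller ratio on day 9, against the same 12.4% of all tested genes. They were SYCP3, MOS, KPNA7 and GDF9. GDF9 was at 56.2, 25.9 and 32.6 CPM in the ovary and 37.6, 27.5 and 33.4 CPM in the oviduct on day 0, where the tissues overlapped. Genes named here from the cholesterol, matrix and oocyte lists were chosen after their values were seen.

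Immune genes were uneven among the ovaries of day 0. In the immune list 5 of 13 tested genes were called with a smaller ratio on day 9: LYZ, NKG7, CD2, PTPRC and CSF1R. Among all tested genes this share was 12.4%. PTPRC was at 183, 148 and 12.5 CPM in ovary libraries 1 to 3 of day 0, and LYZ at 5683, 5282 and 21.5 CPM. On day 9 LYZ was at 20.5, 9.88 and 8.19 CPM in the ovary libraries. Library 3 of day 0 was low in both genes. Without it the number of genes with a difference called between the days rose from 4003 to 5190.

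**Figure D4:**
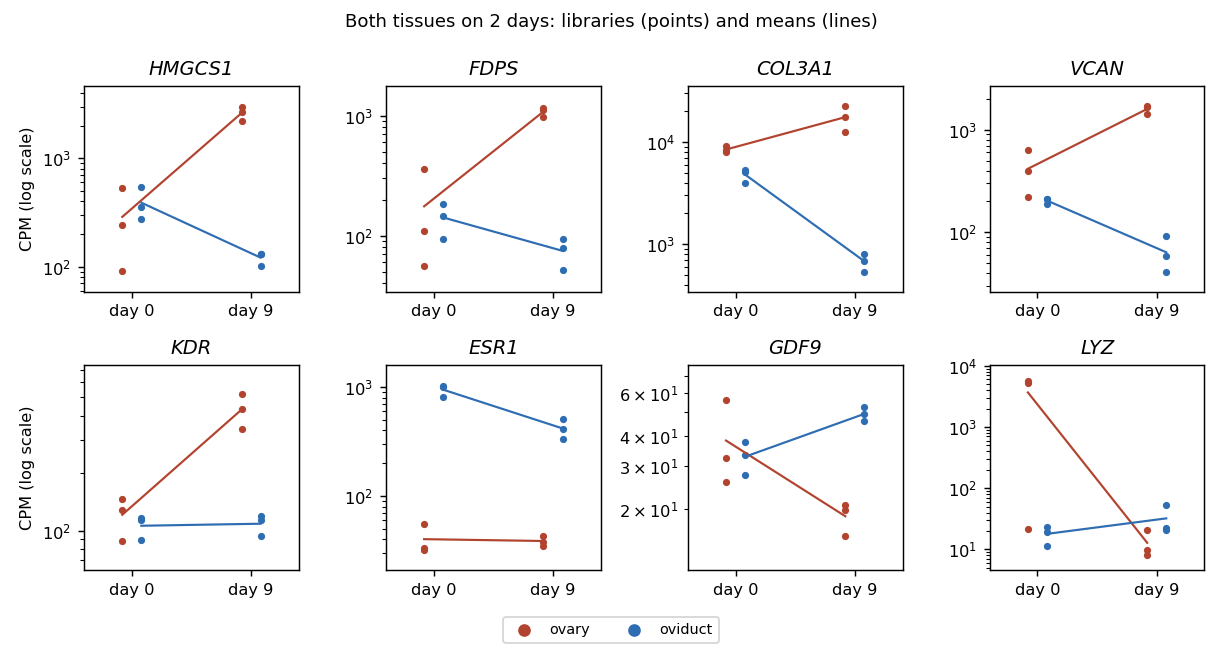
CPM on a log axis of 8 genes in the ovary (red) and the oviduct (blue) on day 0 and day 9, with a point for each of the 3 libraries and a line between the means, on the 12-library scale. HMGCS1 overlaps between the tissues on day 0 and is apart on day 9, COL3A1 and VCAN move apart, and LYZ is high in ovary libraries 1 and 2 of day 0 and low in the other ovary libraries.

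Day 9 stood at an extreme of the cycle for several of these genes when all 66 libraries were put on 1 scale, as a description of group means without a test. The ovary mean of CYP11A1 ranged from 1260 CPM on day 18 to 7190 CPM on day 12, when single libraries lay between 153 and 12261 CPM, and its oviduct mean was highest on day 9. TIMP1 and COL3A1 had their highest ovary means on day 9, at 21000 and 18300 CPM, although 1 library of TIMP1 on day 12 was higher (25553 CPM). The ovary mean of INHA was lowest on day 9, at 325 CPM with libraries between 227 and 449.8 CPM. On day 0 its mean was 3960 CPM, but the libraries lay between 88.1 and 8269 CPM, so the days overlapped. Single ovary libraries of days 12, 15 and 18 were also below those of day 9, down to 108, 42.6 and 35.8 CPM. CYP17A1 had its lowest ovary mean on day 9 as well, at 75.9 CPM with libraries between 43.0 and 125 CPM, and on day 0 the libraries lay between 88.9 and 3223 CPM. Its lowest single ovary libraries were on days 15 and 18, at 13.9 and 23.2 CPM. OVGP1 in the oviduct had its lowest mean on day 9, at 4410 CPM with libraries between 994 and 6859 CPM, and its highest on day 3, at 141000 CPM with libraries between 14812 and 238960 CPM. Its oviduct libraries of days 6, 12 and 15 went down to 2863, 3531 and 4416 CPM and overlapped those of day 9. The oviduct mean of FOXJ1 stayed between 1070 and 1360 CPM over all 7 days, with single libraries between 831 CPM (day 12) and 1702 CPM (day 15). In the ovary the mean of FOXJ1 was between 1.7 and 59 CPM, and the highest mean, on day 15, came with a library at 223 CPM.

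**Figure D5:**
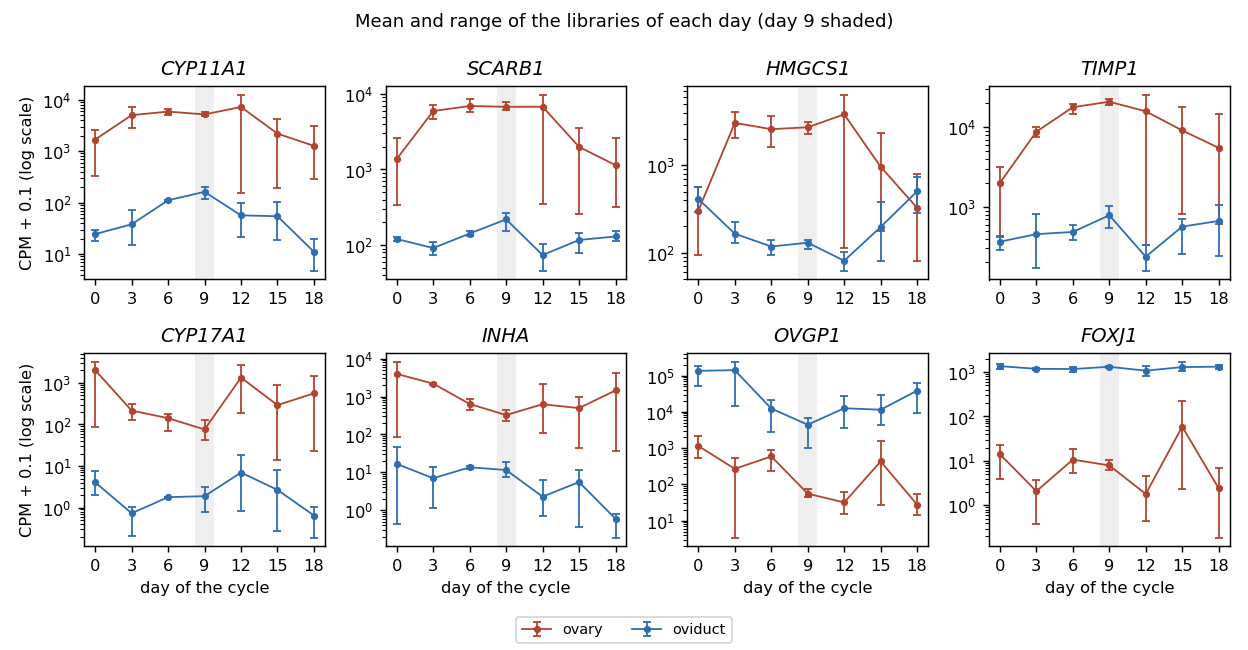
Mean level (points) with the lowest and highest library (bars) of 8 genes over the 7 days in the ovary (red) and the oviduct (blue), as CPM + 0.1 on a log axis on the scale of all 66 libraries, with day 9 shaded. On day 9 the ovary libraries lie close together for CYP11A1, SCARB1, HMGCS1 and TIMP1, CYP17A1 and INHA are at their lowest ovary means, and OVGP1 is at its lowest oviduct mean.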

How the data were processed

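The authors trimmed the first 13 bases of paired-end reads, mapped them to the Sus scrofa genome and Ensembl transcriptome with TopHat, and tested FPKM with Cuffdiff. They deposited a table of counts per Ensembl gene for 66 libraries, neither normalized nor pooled. Per the labels' processing notes featureCounts was used, and its strand setting is not given in the sources used here. The labels name a stranded kit and the methods an unstranded one, so overlapping and antisense genes, and near-identical copies, are uncertain. No row lacked a gene identifier. Columns were assigned to tissue and day by their names, and their numbers start at 1 where the sample titles start at 0. Symbols came from a separate table of gene names that paired 11804 of 25322 identifiers (9647 of 14624 tested). The table gives no positions and none were printed.

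The counts were fitted here with edgeR 4.0.16 in R 4.3.3 (TMM, filterByExpr, robust glmQLFit, glmQLFTest) on the 6 libraries of day 9, and on 12 libraries for the difference between day 9 and day 0. P-values were adjusted over all genes tested by Benjamini-Hochberg. A log2 fold change is the ovary minus the oviduct, its SE is its size divided by the square root of the F statistic, and errors of levels are given as each library's value (n = 3 per group). The fits were also run on simulated counts, in which most genes had equal means in both tissues. These data differ from that setting, so the simulation cannot vouch for the normalization or the calls here. Deviations of same-numbered ovary and oviduct libraries from their group means correlated at 0.127, 0.218 and 0.39 on day 9. Ovary library 2 and oviduct library 1 correlated at 0.121, about as much as the 2 libraries numbered 1. The other differently numbered pairs of day 9 correlated between -0.32 and 0.0649, below every same-numbered pair. The column numbers are the only source of pairing, so whether they pair libraries of a gilt is not settled. The reported fits used no block. The methods give 3 gilts a day, and the labels do not tie a library to a gilt, so p-values measure the spread between these libraries. On day 0 the correlations of same-numbered libraries were 0.168, 0.000719 and 0.0315. With 3 libraries a group, precision is limited to large changes in genes of few counts. Pairs of libraries of a tissue differed by 11.5 to 62.2 times the counting noise (chi-squared per degree of freedom), and the source of this spread was not tested. Each library was counted as its own sample. Reads carry no molecular identifiers, and intervals and floors therefore hold for counting error alone.

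Gene lists, members and the naming rule were chosen with earlier results of these data known. The rule took the 12 genes with the largest fold in each direction (adjusted p under 0.05, no overlap of libraries, a mean of at least 10 CPM), the 5 with the highest CPM in each tissue, list members, and the 6 with the largest difference between days in each direction. A few genes that the rule names are not reported here. Alternatives were DESeq2 1.42.0, its size factors in edgeR, no filter, all libraries in 1 fit, a replicate block by library number, and fits without each library in turn. Figures used Python 3.11.15 with matplotlib 3.10.9.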

Additional observations from a re-analysis of the deposited data

Results flagged for a closer look

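The difference between ovary and oviduct on day 9 was not the same as on day 0 for 4003 genes, by the test of the difference of the 2 log2 fold changes in the 12-library fit. Values below are that difference, day 9 minus day 0, with edgeR's adjusted p, and no explanation was weighed. Ovary library 3 of day 0 stood apart in immune genes, and leaving it out gave 5190 genes.

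Among named genes with a larger ovary-to-oviduct ratio on day 9, the difference was 6.87 for NTM (SE 0.61, adjusted p = 0.000109), a neural adhesion protein. NTM went from 0.531, 1.02 and 1.22 CPM in the ovary and 11.4, 16.6 and 17.7 CPM in the oviduct on day 0 to 12.7, 10.1 and 7.27 CPM in the ovary and 0.961, 2.37 and 0.863 CPM in the oviduct on day 9, so the order of the tissues turned without overlap. ELAPOR1 differed by 6.72 (SE 0.82, adjusted p = 0.000493) and SLC38A11, an amino acid transporter, by 6.17 (SE 0.92, adjusted p = 0.00134). CA12, a carbonic anhydrase, differed by 6.25 (SE 0.50, adjusted p = 6.36e-05). CITED1, a transcriptional coactivator, differed by 6.54 (SE 1.09, adjusted p = 0.00226), with a mean ovary level of 13.6 CPM on day 0 and 499 CPM on day 9. ABCC8, the sulphonylurea receptor, differed by 6.28 (SE 1.07, adjusted p = 0.00243), with 0.579 and 20.3 CPM in the ovary.

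On the side of a smaller ratio on day 9, KNG1, or kininogen, differed by -6.49 (SE 1.52, adjusted p = 0.0113) and GALNT9, which starts mucin-type glycans, by -6.80 (SE 1.36, adjusted p = 0.00549). The oviduct level of GALNT9 was 0.524, 0.087 and 0.188 CPM on day 0 and 15.2, 10.21 and 44.7 CPM on day 9. WNT7B, a secreted ligand, differed by -6.50 (SE 1.47, adjusted p = 0.00983) and stood at 15.0, 33.4 and 0.521 CPM in the ovary on day 0. PENK, the precursor of enkephalins, differed by -7.01 (SE 1.87, adjusted p = 0.0198), with 4.43, 53.3 and 406 CPM in the ovary on day 0, most of it in library 3. CSF3R, the receptor of granulocyte colony-stimulating factor, differed by -7.20 (SE 1.73, adjusted p = 0.0128) and LYZ by -8.99 (SE 1.82, adjusted p = 0.00589). Both were high in ovary libraries 1 and 2 of day 0 and low in library 3. The call of KNG1 was lost without ovary library 1 of day 0 (adjusted p = 0.0529) and that of PENK without oviduct library 2 of day 0 (adjusted p = 0.0524). The call of LYZ was lost with the library number as a block (log2 difference -8.06, adjusted p = 0.0611).

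For 5 further genes, chosen after their values were seen, the differences were 4.87 for HMGCS1, 3.61 for VCAN, 3.88 for COL3A1, 1.12 for ESR1 and -2.94 for PTGER4, with adjusted p between 0.00016 and 0.0269.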

How the results depend on the processing

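The number of DEGs between the tissues was 9303, and it was between 8290 and 9395 when 1 library was left out, 9356 with DESeq2, 8878 with all libraries in 1 fit and 10265 with the library number as a block, which shared 9239 DEGs with the reported ones. The block, with which 3765 genes differed between the days, changed the calls between the tissues on day 9 of GHR, PGRMC2 and UBB and of no other gene named or listed. Of 173 called genes named or in lists, 153 kept their call and direction in every alternative, and 0 of 1903 alternative values had the opposite direction. Of 56 values no longer called, 34 came from fits without 1 library and 19 from the fit of all libraries. Of 12 named differences between days, 9 kept their call, and LYZ lost it with the library number as a block (log2 -8.06, adjusted p = 0.0611). Same-numbered libraries of day 0 correlated at 0.168, 0.000719 and 0.0315.

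Counts that moved by over 1.5 times were the following. Differences with a larger ratio on day 9 numbered 1281 with all libraries in 1 fit, against 2087. Those with a smaller ratio, 1916, ranged from 1170 (without ovary library 1 of day 9) to 2557 (without ovary library 3 of day 0), and were 1215 without ovary library 2 and 1241 without oviduct library 2 of day 9, and 1220 and 1267 without oviduct libraries 2 and 3 of day 0. Genes near 0 in the other tissue, 453, became 53 (4 in the ovary, 49 in the oviduct) at 0 counts, 1308 (384 and 924) at up to 10, and 68 (1 and 67) at 100 or more counts in the first tissue. Of these, the 97 counted in the ovary became 113 to 151 without 1 library. The share of counts in the most counted genes, a mean of 18.8% in the ovary and 9.2% in the oviduct for 10 genes, was 36.6% and 21.5% for 100. The causes of these shifts beyond the fewer libraries or the other cut were not tested. Depth limits genes at 3 counts or fewer in each library of a tissue, whose fitted folds are not measured sizes.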
